A study of Homo sapiens with 9 samples.

Results

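The genes described here are the integrin subunits and the laminin chains of the mouse. They were taken as every gene symbol that reads Itga or Itgb with 1 or 2 more letters or digits, or Lama, Lamb or Lamc with a digit, and 39 of the 17369 genes in the expression table had such a symbol. Of these, 38 are described here, 27 integrin subunits, 10 laminin chains and Itgbl1. Itgbl1 shares the letters of the name but encodes a secreted protein that resembles an integrin beta chain, and it is given apart.

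Gene expression had been measured by RNA sequencing in 9 thyroid tumors of mice, 3 in each of 3 groups. TBP3743 is a mouse anaplastic thyroid cancer cell line that came from B6129SF1 mice carrying Braf V600E and a Trp53 deletion in the thyroid. The adapted cells are the same line after 3 rounds of growth in C57BL/6 mice, so all 3 groups carry both alleles. Original cells were grown in B6129SF1 hosts (original/B6129SF1), adapted cells in B6129SF1 hosts (adapted/B6129SF1) and adapted cells in C57BL/6 hosts (adapted/B6). The hosts were female, 6 weeks old and untreated, the cells were injected into the thyroid gland, and the whole tumors were collected on day 14. Adapted cells came from one line of passages, so a difference between original and adapted cells is a difference between these cell populations. The adapted/B6129SF1 and original/B6129SF1 groups differ in the cells, the adapted/B6 and adapted/B6129SF1 groups differ in the host, and the adapted/B6 and original/B6129SF1 groups differ in both.

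Integrins are receptors made of an alpha and a beta chain that tie a cell to the extracellular matrix or to another cell. Leukocytes carry their own set, built mainly on the beta 2 and beta 7 chains, which they use to stop on vessel walls, to move and to take up particles, while epithelial cells stand on laminin through alpha 6 beta 4, alpha 6 beta 1 and alpha 3 beta 1. Laminins are trimers of an alpha, a beta and a gamma chain that build the basement membrane, and the alpha chain largely sets which tissues a laminin serves and which integrins bind it.

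The values are FPKM, the fragments of a gene scaled by the length of its transcript and by the sequencing depth, so that levels can be compared between genes. Differences between groups are log2 fold changes of FPKM + 1, tested with limma over the 10263 genes that reached 1 FPKM in at least 3 tumors. A gene passed at a Benjamini-Hochberg adjusted p under 0.05, and a gene that passed with an absolute log2 fold change over 1 was a differentially expressed gene (DEG), the limit that the study used. Of the 38 members described, 26 were tested, 19 of them integrin subunits, 6 laminin chains and Itgbl1. The 12 members under the filter were Itgad, Itgae, Itgb2l, Itgb6, Itgb8, Itga8, Itga11, Itga2b, Lama1, Lama3, Lamb3 and Lamc3. The tumors were labelled as biological replicates, and p-values measure the spread between these 9 tumors.

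In some tumors, RNA of other tissues was present. The summed level of 13 skeletal muscle genes was 36411 FPKM in adapted/B6129SF1 replicate 3 and 5982 in adapted/B6 replicate 1, against 4.16 to 730 in the other tumors. The label of the cells is cancer epithelial cell, but in whole tumors the epithelial genes Epcam and Cdh1 did not exceed 2.49 and 4.48 FPKM, while the keratin genes Krt8 and Krt18 reached 615 and 390 FPKM. Nkx2-1, a thyroid transcription factor gene, was at 23.5 to 44.5 FPKM, whereas the thyroid genes Tshr, Slc5a5 and Foxe1 were at most at 0.248 FPKM and Pax8 at most at 1.61 FPKM.

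Among the 26 members described and tested, 1 gene passed where cells and host both differed, and 0 passed where the cells alone or the host alone differed. Of all genes tested, 6.75% passed where both differed, 8.28% where the cells alone differed and 0.0292% where the host alone differed. Itga10, a collagen receptor chain, fell in the adapted/B6 tumors relative to the original/B6129SF1 tumors. The 6 leukocyte integrins that were tested had higher mean levels in both adapted groups, but 0 of them passed, and neither did any epithelial or widely expressed integrin or any laminin chain described here.

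Between the adapted/B6129SF1 and original/B6129SF1 groups, 0 of 26 members passed in limma, and 8 had an unadjusted p under 0.05, as did 26.5% of all genes tested. Of all genes tested, 8.28% passed, 4.37% higher and 3.92% lower, and 3.22% were DEGs. The 3 tumors of each group did not overlap for 2 members that were higher and 3 that were lower in the adapted/B6129SF1 group, compared with 13.6% and 15.9% of all genes tested. The median log2 fold change was 0.09 over the 26 members and -0.03 over all genes tested.

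Between the adapted/B6 and original/B6129SF1 groups, 1 of 26 members passed, which was lower and not a DEG, and 8 had an unadjusted p under 0.05, as did 24.4% of all genes tested. Of all genes tested, 6.75% passed, 3.99% higher and 2.77% lower, and 3.09% were DEGs. The tumors did not overlap for 7 members that were higher and 3 that were lower in the adapted/B6 tumors, against 14.9% and 17.9% of all genes tested. The median log2 fold change of the members was 0.10, and that of all genes tested was -0.02. Both comparisons use the same original/B6129SF1 tumors, so their calls are not independent of each other.

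Between the adapted/B6 and adapted/B6129SF1 groups, which hold the same cells in different hosts, 0 of 26 members passed in limma, and 1 had an unadjusted p under 0.05, as did 6.27% of all genes tested. Of all genes tested, 0.0292% passed, 0% higher and 0.0292% lower, and 0.0292% were DEGs. The tumors did not overlap for 2 members that were higher (Itga6 and Itgb4) and 1 that was lower (Itga10) in the adapted/B6 tumors, against 6.32% and 5.42% of all genes tested. The median log2 fold change was 0.16 over the members and 0.01 over all genes tested. These groups also enter the comparisons with the original/B6129SF1 group.

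**Figure D1:**
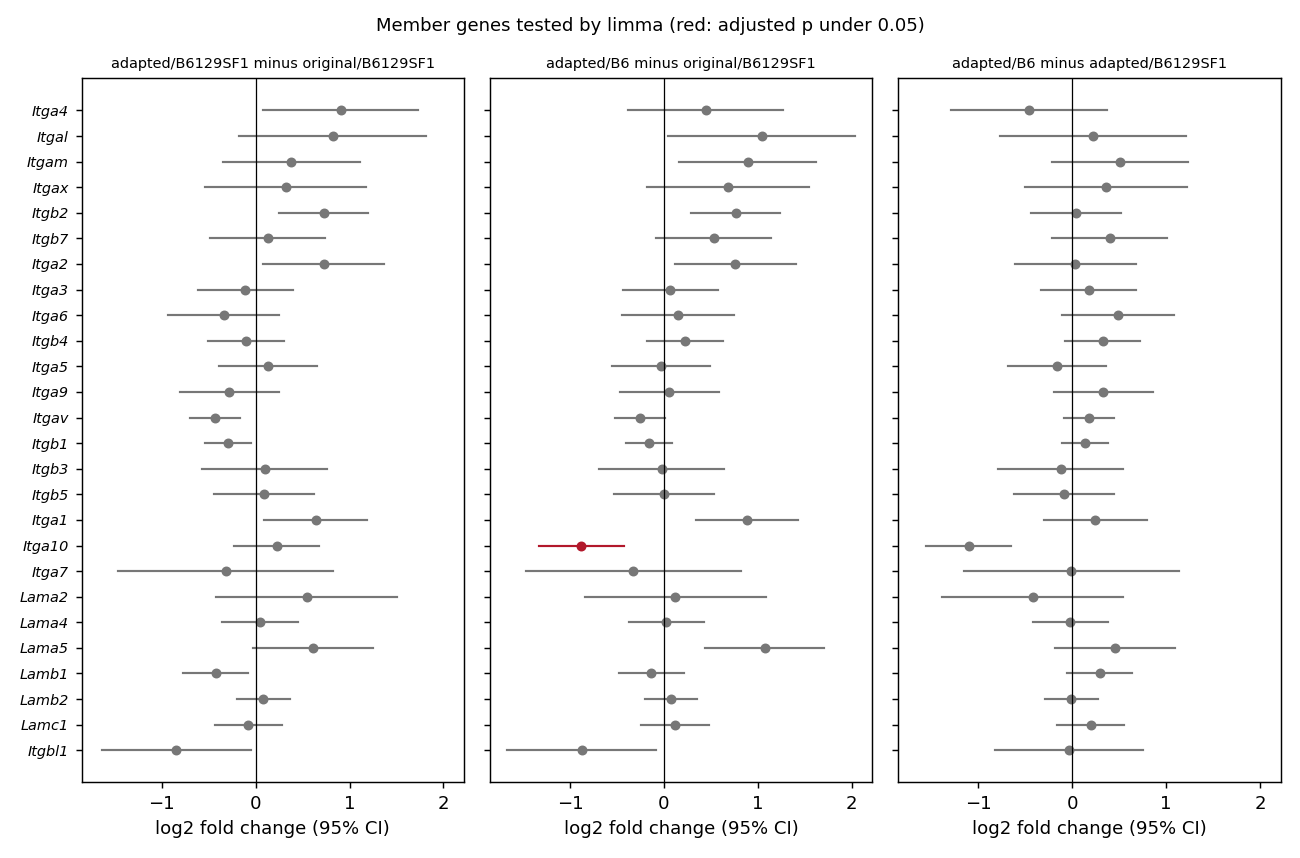
Log2 fold change of FPKM + 1 (points) with the 95% confidence interval from limma (lines) for the 26 members described and tested, in 3 panels for adapted/B6129SF1 minus original/B6129SF1, adapted/B6 minus original/B6129SF1 and adapted/B6 minus adapted/B6129SF1. Red marks an adjusted p under 0.05, reached by Itga10 at -0.88 in the second panel and by no other member drawn.

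The laminin chains Lama3 and Lamb3 were hardly represented. Lama3, the alpha 3 chain, was at 0.183 to 0.361 FPKM in the original/B6129SF1 tumors, 0.360 to 1.04 in the adapted/B6129SF1 tumors and 0.215 to 0.480 in the adapted/B6 tumors. Lamb3, the beta 3 chain, was at 0.307 to 0.759 FPKM across the 9 tumors. For both genes the 3 groups overlapped, and exact two-sided permutation tests of FPKM gave p-values between 0.2 and 0.8, where 3 tumors against 3 cannot reach less than 0.1.

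Among epithelial genes, the keratin gene Krt8 of simple epithelia fell in both comparisons with the original/B6129SF1 group, by 1.32 (adapted/B6129SF1, adjusted p = 0.0189 from limma) and by 1.12 (adapted/B6, adjusted p = 0.0346) on the log2 scale. The summed level of 8 epithelial genes was 578 to 970 FPKM in the original/B6129SF1 tumors, 265 to 548 in the adapted/B6129SF1 tumors and 371 to 425 in the adapted/B6 tumors, with Krt8 and Krt18 making up nearly all of it. Of the 6 epithelial genes tested, only Krt8 passed, against 8.28% (adapted/B6129SF1) and 6.75% (adapted/B6) of all genes tested. Its call was lost without either original/B6129SF1 replicate 1 or replicate 3 (adjusted p = 0.0679 and 0.0742 in the adapted/B6129SF1 group, 0.109 and 0.116 in the adapted/B6 tumors). Without any one of the adapted/B6 tumors, the adapted/B6 call was lost as well (adjusted p = 0.0897 to 0.107). The part of the epithelial content in the levels of laminin chains and epithelial integrins was not tested. In bulk tumors, fewer cells of a type and less RNA per cell cannot be told apart.

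Lamc1, the gamma chain of most laminins, was at 61.6 to 93.9 FPKM in the 9 tumors. Lamc3, the gamma 3 chain, was low, with 0.249, 2.51 and 0.586 FPKM in the original/B6129SF1 tumors, 0.496, 0.115 and 0.0633 in the adapted/B6129SF1 tumors and 0.151, 0.0691 and 0.0429 in the adapted/B6 tumors. Only original/B6129SF1 replicate 2 was over 1 FPKM. The adapted/B6 tumors were all below the original/B6129SF1 tumors (exact two-sided permutation p = 0.1, the smallest possible).

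**Figure D2:**
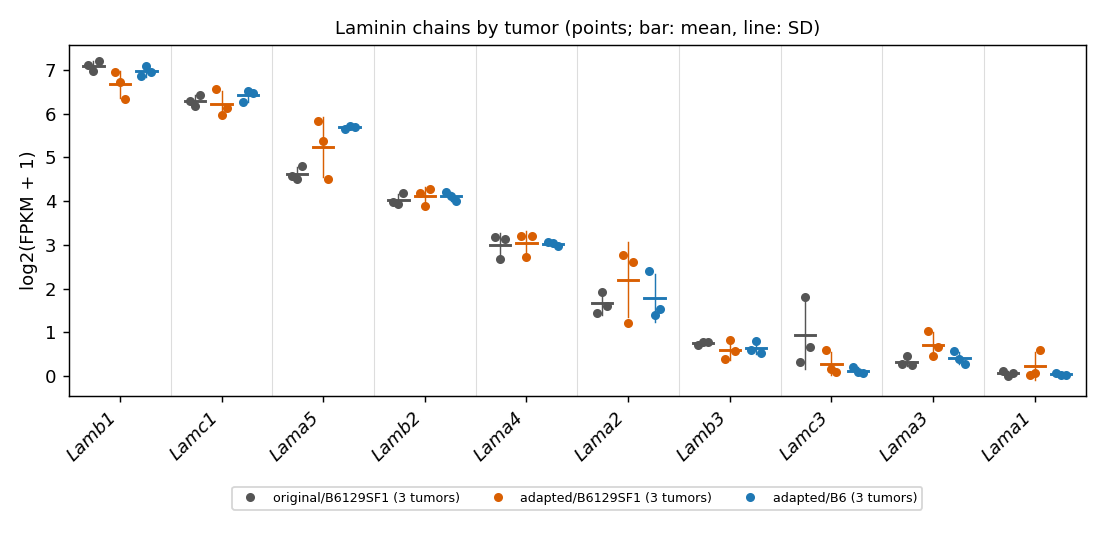
Level of 10 laminin chains in the 9 tumors as log2(FPKM + 1), in order of level, with points for tumors, horizontal bars for the means of the 3 tumors of a group and vertical lines for the SD. Lamb1 and Lamc1 lie highest, Lama5 is the highest alpha chain, and its adapted/B6 points lie above the original/B6129SF1 points.

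The beta chains were led by Lamb1, the widely expressed beta 1 chain. It was at 138, 125 and 147 FPKM in the original/B6129SF1 tumors, 122, 106 and 80.4 in the adapted/B6129SF1 tumors and 115, 135 and 124 in the adapted/B6 tumors. The adapted/B6129SF1 tumors were all below the original/B6129SF1 tumors, while the adapted/B6 tumors overlapped with both groups. The log2 fold change was -0.43 in the adapted/B6129SF1 group (SE 0.15, adjusted p = 0.118 from limma) and -0.13 in the adapted/B6 tumors (adjusted p = 0.642). Without adapted/B6129SF1 replicate 3, the adapted/B6129SF1 value of Lamb1 was -0.26 (adjusted p = 0.236). Lamb2, the beta chain found in vessels, muscle and kidney, was at 13.9 to 18.4 FPKM in all tumors.

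Among the alpha chains Lama5, which forms the laminins under most adult epithelia and vessels, was highest. Its level was 22.9, 21.6 and 26.9 FPKM in the original/B6129SF1 tumors, 55.9, 40.8 and 21.6 FPKM in the adapted/B6129SF1 tumors and 49.5, 51.9 and 51.3 FPKM in the adapted/B6 tumors. All adapted/B6 tumors were above the original/B6129SF1 tumors, as were 2 of the adapted/B6129SF1 tumors, whereas adapted/B6129SF1 replicate 3, the tumor with most muscle RNA, was at the level of the original/B6129SF1 tumors. The log2 fold change was 1.07 in the adapted/B6 tumors (SE 0.28, 95% interval 0.43 to 1.71, adjusted p = 0.0558 from limma) and 0.61 in the adapted/B6129SF1 group (SE 0.28, adjusted p = 0.204), neither of which passed. Without adapted/B6129SF1 replicate 3, both passed, at 0.98 for the adapted/B6129SF1 group (adjusted p = 0.0132) and 1.07 for the adapted/B6 tumors (adjusted p = 0.00428). Without adapted/B6129SF1 replicate 1, the adapted/B6 value alone passed (adjusted p = 0.0214), while the adapted/B6129SF1 value was 0.32 (adjusted p = 0.433). Without any other single tumor neither passed, with adjusted p-values of up to 0.365 for adapted/B6129SF1 and 0.165 for adapted/B6. With both muscle-rich tumors left out, the values were 0.98 (adjusted p = 0.0204) and 1.09 (adjusted p = 0.0118).

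The other alpha chains were lower. Lama4, the alpha chain of vessel and mesenchymal laminins, was at 5.35 to 8.24 FPKM with overlap between all groups. Lama2, the alpha chain of the basement membrane around muscle fibers, was at 1.70, 2.81 and 2.05 FPKM in the original/B6129SF1 tumors, 5.84, 1.31 and 5.13 FPKM in the adapted/B6129SF1 tumors and 4.30, 1.62 and 1.91 FPKM in the adapted/B6 tumors. It was highest in adapted/B6129SF1 replicates 1 and 3 and adapted/B6 replicate 1, the 3 tumors with the most muscle RNA, and its groups overlapped. Lama1 was at 0.519 FPKM in adapted/B6129SF1 replicate 3 and at most 0.0764 FPKM elsewhere.

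As shares, Lama5 made up 71.3 ± 1.74% of the alpha chain FPKM in the original/B6129SF1 group, 74.5 ± 12.9% in the adapted/B6129SF1 group and 83.5 ± 2.84% in the adapted/B6 tumors (SD, n = 3 each). All alpha chains together took 12.5 ± 0.248% of the FPKM of the 10 laminin chains in the original/B6129SF1 group, 20.6 ± 2.86% in the adapted/B6129SF1 group and 21.3 ± 1.42% in the adapted/B6 tumors. In each of the 9 tumors the alpha chains thus had less FPKM in sum than the beta and gamma chains together. The alpha share was between 12.4 and 12.8% in the original/B6129SF1 tumors and between 17.6 and 23.3% in the tumors of adapted cells, without overlap. Over the 6 laminin chains described and tested, the median log2 fold change was 0.06 in the adapted/B6129SF1 group, 0.10 in the adapted/B6 tumors and 0.10 between the adapted groups, and 0 of them passed in each.

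**Figure D3:**
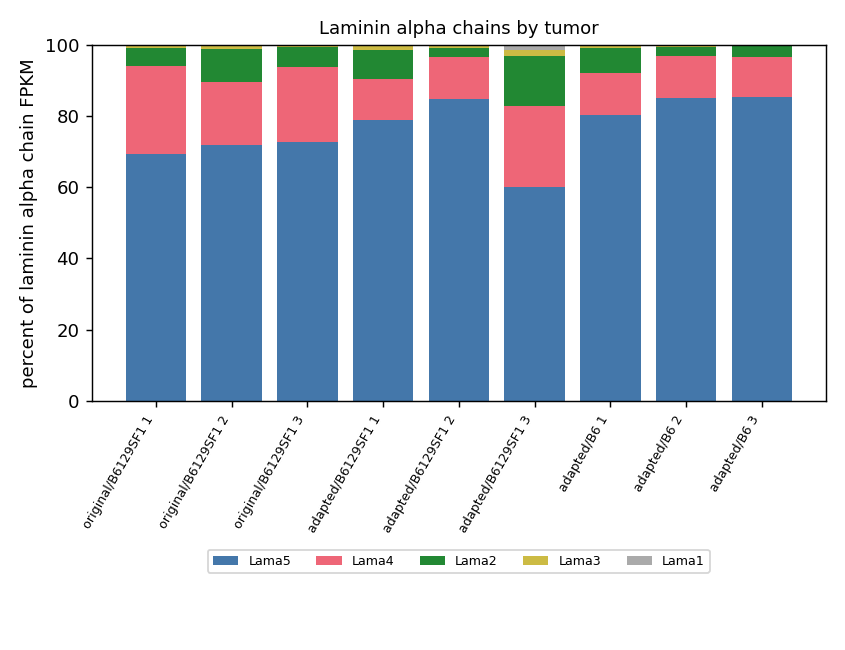
Share of each chain in the summed FPKM of the laminin alpha chains, in percent, with one stacked bar for each of the 9 tumors. Lama5 forms the largest alpha share in every tumor (60.1 to 85.2%), and Lama4 and Lama2 take most of the rest.

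Leukocyte integrins were measured by 9 members, of which 6 were tested and 0 passed in any comparison, with 2, 3 and 0 at an unadjusted p under 0.05 from limma (26.5%, 24.4% and 6.27% of all genes tested) in the adapted/B6129SF1 group, the adapted/B6 tumors and between the adapted groups. All 6 had a log2 fold change above 0 in both comparisons with the original/B6129SF1 group, with medians of 0.55 in the adapted/B6129SF1 group and 0.72 in the adapted/B6 tumors. Between the adapted groups 5 of 6 were above 0 in the adapted/B6 tumors, with a median of 0.29. Leukocyte integrins took 15.1 ± 2.60% of all integrin FPKM in the original/B6129SF1 group, 21.4 ± 3.17% in the adapted/B6129SF1 group and 24.9 ± 4.74% in the adapted/B6 tumors (SD, n = 3 each). The lowest tumor of adapted cells, at 17.8%, was above the highest tumor of original cells, at 16.6%. This share counts Itgb7, at 19.7 to 44.0 FPKM, and which cells expressed it was not tested. It also depends on the other integrins, of which the widely expressed ones had median log2 fold changes of -0.10 and -0.03 against the original/B6129SF1 group.

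Itgb2, the beta 2 chain shared by LFA-1, Mac-1 and the other leukocyte beta 2 integrins, was at 38.4, 34.3 and 44.0 FPKM in the original/B6129SF1 tumors. It was at 61.5, 64.3 and 68.2 FPKM in the adapted/B6129SF1 tumors and at 77.1, 45.3 and 83.6 FPKM in the adapted/B6 tumors. All tumors of adapted cells were above all tumors of original cells, and adapted/B6 replicate 2 was the lowest of them. The log2 fold change was 0.72 in the adapted/B6129SF1 group (SE 0.21, adjusted p = 0.0699 from limma) and 0.76 in the adapted/B6 tumors (SE 0.21, adjusted p = 0.0632), just short of passing. Without adapted/B6 replicate 2, both passed, at 0.72 (adjusted p = 0.0134) and 1.03 (adjusted p = 0.0105). With any other single tumor left out neither passed, with adjusted p-values from limma of up to 0.166 and 0.204. The smallest values were then 0.64 and 0.60. Of the beta chain FPKM, Itgb2 took 7.42 ± 0.836% in the original/B6129SF1 group, 12.7 ± 1.45% in the adapted/B6129SF1 group and 12.7 ± 3.20% in the adapted/B6 tumors (SD, n = 3 each).

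Among the alpha partners of Itgb2, Itgam was by far the highest. This gene encodes CD11b, the alpha chain of Mac-1 on macrophages, monocytes, neutrophils and NK cells. Its levels were 58.6, 36.5 and 73.6 FPKM in the original/B6129SF1 tumors, 72.7, 61.2 and 79.3 FPKM in the adapted/B6129SF1 tumors and 132, 62.5 and 124 FPKM in the adapted/B6 tumors. Adapted/B6 replicates 1 and 3 stood above all other tumors, and replicate 2 lay among the others. The log2 fold change was 0.38 in the adapted/B6129SF1 group (adjusted p = 0.475 from limma), 0.89 in the adapted/B6 tumors (SE 0.32, adjusted p = 0.133) and 0.51 between the adapted groups (adjusted p = 0.864). Without adapted/B6 replicate 2, the adapted/B6 value was 1.23 and passed (adjusted p = 0.0463). With any other single tumor left out it did not pass, with values down to 0.61 and adjusted p-values from limma of up to 0.334.

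Itgal encodes CD11a, the alpha chain of LFA-1, which T cells, NK cells and other leukocytes use to bind ICAM proteins. It was at 3.99, 1.43 and 3.56 FPKM in the original/B6129SF1 tumors, 2.57, 8.82 and 7.69 FPKM in the adapted/B6129SF1 tumors and 8.41, 4.27 and 8.72 FPKM in the adapted/B6 tumors. The adapted/B6 tumors were all above the original/B6129SF1 tumors, and adapted/B6129SF1 replicate 1 lay within the original/B6129SF1 range. As a log2 fold change, the difference was 0.82 in the adapted/B6129SF1 group (SE 0.44, adjusted p = 0.269 from limma) and 1.04 in the adapted/B6 tumors (SE 0.44, adjusted p = 0.187). Itgax, which encodes CD11c of dendritic cells and some macrophages, was at 3.56, 1.58 and 2.52 FPKM in the original/B6129SF1 tumors, 1.83, 6.84 and 2.65 in the adapted/B6129SF1 tumors and 6.33, 3.96 and 3.71 in the adapted/B6 tumors. The adapted/B6 tumors lay above the original/B6129SF1 tumors, but the adapted/B6129SF1 tumors spread over both (log2 fold changes 0.68 and 0.32, adjusted p = 0.310 and 0.619 from limma). Itgam made up 79.4 to 94.2% of the summed FPKM of the 4 alpha chains that pair with beta 2.

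Itga4, the alpha 4 chain of the lymphocyte and monocyte receptors for VCAM-1 and MAdCAM-1, was at 3.14, 1.48 and 2.15 FPKM in the original/B6129SF1 tumors. It was at 2.53, 6.72 and 6.79 FPKM in the adapted/B6129SF1 tumors and at 4.63, 1.95 and 3.90 FPKM in the adapted/B6 tumors, so that both comparisons overlapped. In log2 fold change, this was 0.91 in the adapted/B6129SF1 group (SE 0.36, adjusted p = 0.156 from limma) and 0.44 in the adapted/B6 tumors (adjusted p = 0.502). Without adapted/B6129SF1 replicate 1, which was the lowest of its group, the adapted/B6129SF1 value was 1.28 and passed (adjusted p = 0.0482). With any other single tumor left out it did not pass, with values down to 0.71 and adjusted p-values from limma of up to 0.311.

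Itgb7, the beta 7 chain that pairs with alpha 4 and alpha E on gut-homing and intraepithelial lymphocytes, was at 32.7, 19.7 and 29.3 FPKM in the original/B6129SF1 tumors. In the adapted/B6129SF1 tumors it was at 20.4, 44.0 and 27.7 FPKM and in the adapted/B6 tumors at 36.0, 37.9 and 43.3 FPKM. The adapted/B6 tumors lay above the original/B6129SF1 tumors, with a log2 fold change of 0.53 (SE 0.27, adjusted p = 0.267 from limma), and the adapted/B6129SF1 tumors overlapped with both. Itgb7 was 3.90 to 17.95 times the summed level of its alpha partners Itga4 and Itgae in the 9 tumors. Itgae, which encodes CD103 of tissue-resident T cells and a class of dendritic cells, was at 0.153 to 0.303 FPKM and overlapped between groups.

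Itgad, the alpha D chain that pairs with beta 2, was listed at 0.168, 0.112 and 0.118 FPKM in the original/B6129SF1 tumors, 0.105, 0.226 and 0.150 FPKM in the adapted/B6129SF1 tumors and 0.0171, 0.0117 and 0 FPKM in the adapted/B6 tumors. Every adapted/B6 tumor thus had a lower value than every tumor from a B6129SF1 host, with an exact two-sided permutation p of 0.1 against either group, the smallest that 3 tumors against 3 allow. These values were too low to enter the fit across genes. Itgb2l, a gene similar to Itgb2, was at most at 0.184 FPKM. Levels of Itgb2l could include reads of its relative if reads were shared between them.

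**Figure D4:**
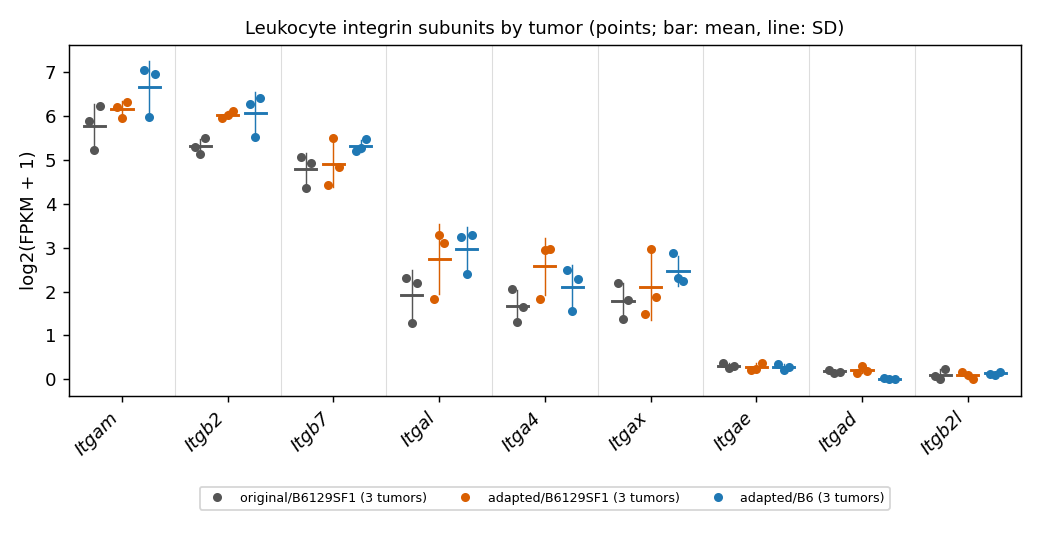
Level of the 9 leukocyte integrin subunits in the 9 tumors as log2(FPKM + 1), in order of level, with points for tumors, horizontal bars for the means of the 3 tumors of a group and vertical lines for the SD. Itgam, Itgb2 and Itgb7 lie well above Itgal, Itga4 and Itgax, and the Itgb2 points of both adapted groups lie above those of the original/B6129SF1 group.

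Genes that mark leukocytes in general were set beside the integrins. The summed level of 8 such genes, which include Ptprc (CD45), was 220 to 287 FPKM in the original/B6129SF1 tumors, 326 to 435 FPKM in the adapted/B6129SF1 tumors and 264 to 454 FPKM in the adapted/B6 tumors. All 8 had log2 fold changes above 0 in both comparisons with the original/B6129SF1 group, with medians of 0.59 and 0.45, and 0 of 8 passed, with 5 and 3 at an unadjusted p under 0.05 from limma (26.5% and 24.4% of all genes tested). The T and NK cell genes summed to 6.74 to 14.6, 15.0 to 51.8 and 34.9 to 54.0 FPKM in the original/B6129SF1, adapted/B6129SF1 and adapted/B6 tumors. Of 10 tested, 2 passed in the adapted/B6129SF1 group (Cd3g and Nkg7) and 3 in the adapted/B6 tumors (with Cd2), against 8.28% and 6.75% of all genes tested. Each of these calls was lost without any one of the original/B6129SF1 tumors (adjusted p = 0.0534 to 0.125 from limma). Some calls were also lost when other tumors were left out, with an adjusted p of up to 0.146 from limma for Cd2. Macrophage and monocyte genes summed to 2286 to 3107, 3188 to 4615 and 1966 to 3821 FPKM. Of 10 tested, 1 passed in each comparison with the original/B6129SF1 group, against the same 8.28% and 6.75% of all genes tested. In the adapted/B6129SF1 group all 10 were higher, 9 without overlap (13.6% of all genes tested). In the adapted/B6 tumors 9 were higher and 1 lower, with 2 higher without overlap (14.9% of all genes tested). Between the adapted groups, 9 were lower and 1 higher in the adapted/B6 tumors, with 3 lower without overlap (5.42% of all genes tested). Ccr2, a chemokine receptor gene of monocytes, passed at 1.04 for adapted/B6129SF1 (adjusted p = 0.0342 from limma). Fcgr1, an Fc receptor gene, passed at 0.96 for adapted/B6 (adjusted p = 0.0304). Neutrophil genes summed to 25.9 to 34.2, 9.29 to 28.6 and 27.3 to 59.7 FPKM, with the neutrophil marker Ly6g listed at 0 in 8 of 9 tumors. The 6 B cell genes never exceeded 1.78 FPKM in sum.

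Of 5 dendritic cell genes tested, 2 passed in each comparison with the original/B6129SF1 group, against 8.28% (adapted/B6129SF1) and 6.75% (adapted/B6) of all genes tested. Clec9a, a receptor gene of cross-presenting dendritic cells, was at 0.154 to 0.416, 2.75 to 6.15 and 2.99 to 4.71 FPKM in the 3 groups and rose with log2 fold changes of 1.96 and 1.89 (limma adjusted p = 0.00512 and 0.00449). Batf3, a transcription factor gene of the same cells, rose for adapted/B6 (0.92, adjusted p = 0.0471), and Fscn1, the fascin gene, fell for adapted/B6129SF1 (-0.49, adjusted p = 0.0326). Among the other genes of the list, Zbtb46 and Ccr7 did not pass, and Flt3, Xcr1 and Cd209a were under the filter. Xcr1, at 0.132 to 0.321 FPKM, and Flt3, at 0.148 to 0.689 FPKM, overlapped between all groups. Zbtb46 in both adapted groups, and Ccr7 and Cd209a in the adapted/B6 tumors, lay above the original/B6129SF1 tumors. The 8 dendritic cell genes summed to 110 to 135, 91.5 to 93.7 and 87.3 to 108 FPKM, most of it Fscn1. The 8 endothelial genes summed to 78.1 to 98.8, 82.9 to 132 and 98.8 to 118 FPKM. Of these 8, Egfl7 alone passed, against the same shares of all genes tested, with log2 fold changes of 0.59 in each comparison (limma adjusted p = 0.0406 and 0.0471). Clec9a kept its calls without any one tumor, whereas those of Ccr2, Fcgr1, Batf3, Fscn1 and Egfl7 were each lost without any one original/B6129SF1 tumor and without some adapted tumors (adjusted p = 0.0531 to 0.155). The part of these cell types in the levels of the leukocyte integrins was not tested.

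Each tested leukocyte integrin was set against the mean log2 level of those 8 general leukocyte genes within the same tumor. Relative to them Itgb2 was higher by 0.16 in the adapted/B6129SF1 group and by 0.25 in the adapted/B6 tumors on the log2 scale, without overlap (exact two-sided permutation p = 0.1 for each, the smallest possible). Itgal was higher by 0.53 in the adapted/B6 tumors (exact permutation p = 0.1) and by 0.26 in the adapted/B6129SF1 group (exact permutation p = 0.5). Itgam was higher by 0.56 in the adapted/B6 tumors than in the adapted/B6129SF1 group without overlap (exact permutation p = 0.1), while it differed from the original/B6129SF1 group by 0.38 in the adapted/B6 tumors and -0.18 in the adapted/B6129SF1 group (exact permutation p = 0.2 and 0.6). For Itga4, Itgax and Itgb7 all groups overlapped, with exact permutation p-values of 0.2 to 1. These are 18 values in one family, and a p of 0.1 cannot pass an adjustment over them. The difference of Itgb2 turned to -0.15 and -0.02 when Ptprc alone was the reference (exact permutation p = 0.5 and 1).

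The ligands that leukocyte integrins bind on other cells did not pass. Of 9 such genes 7 were tested, 0 passed in any comparison, and 0, 2 and 1 had an unadjusted p under 0.05 from limma, against 26.5%, 24.4% and 6.27% of all genes tested. Vcam1, the ligand of alpha 4 integrins, was at 34.4, 18.3 and 16.8 FPKM in the original/B6129SF1 tumors, 27.4, 32.0 and 65.7 FPKM in the adapted/B6129SF1 tumors and 39.0, 50.0 and 51.6 FPKM in the adapted/B6 tumors (log2 fold changes 0.79 and 1.05, adjusted p = 0.193 and 0.11 from limma). Icam1, the ligand of LFA-1 and Mac-1, was at 6.48 to 8.13, 7.60 to 13.5 and 9.46 to 16.2 FPKM in the 3 groups (log2 fold changes 0.44 and 0.74, adjusted p = 0.258 and 0.0902). For both genes the adapted/B6 tumors lay above the original/B6129SF1 tumors.

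Epithelial integrins were measured by 6 members, of which 4 were tested and 0 passed in any comparison, with 1, 1 and 0 at an unadjusted p under 0.05 from limma, against 26.5%, 24.4% and 6.27% of all genes tested. Their median log2 fold change was -0.11 in the adapted/B6129SF1 group, 0.19 in the adapted/B6 tumors and 0.25 between the adapted groups. Itga6, the alpha chain of the hemidesmosome receptor alpha 6 beta 4 and of alpha 6 beta 1, was at 55.4, 30.4 and 61.7 FPKM in the original/B6129SF1 tumors, 40.6, 44.0 and 28.2 FPKM in the adapted/B6129SF1 tumors and 51.7, 47.5 and 58.2 FPKM in the adapted/B6 tumors. Its partner Itgb4 was at 13.9, 11.4 and 15.7 FPKM, at 15.0, 14.2 and 9.30 FPKM and at 16.4, 15.5 and 16.1 FPKM in the same tumors. For both chains the adapted/B6 tumors were above the adapted/B6129SF1 tumors, and the original/B6129SF1 tumors overlapped with each. The log2 fold changes between the adapted groups were 0.49 (SE 0.26, 95% interval -0.10 to 1.08) for Itga6 and 0.32 (SE 0.18, 95% interval -0.08 to 0.73) for Itgb4, with adjusted p-values of 0.828 and 0.831 from limma.

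Itga6 exceeded Itgb4 by 2.68 to 3.99 times in every tumor, and the ratio overlapped between groups. Itga3, the alpha chain of the laminin receptor alpha 3 beta 1, was at 65.3, 32.2 and 55.2 FPKM in the original/B6129SF1 tumors, 45.1, 49.9 and 40.9 FPKM in the adapted/B6129SF1 tumors and 49.1, 50.9 and 53.6 FPKM in the adapted/B6 tumors. All groups overlapped for Itga3, with log2 fold changes of -0.11 and 0.07 against the original/B6129SF1 group. Original/B6129SF1 replicate 2 had the lowest level of Itga3, Itga2 and Itgb8 among the original/B6129SF1 tumors, and of Itga6 and Itgb4 as well.

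Itga2, the alpha chain of a collagen and laminin receptor of epithelium and platelets, was at 1.69, 0.540 and 1.88 FPKM in the original/B6129SF1 tumors. It was at 3.41, 3.58 and 1.67 FPKM in the adapted/B6129SF1 tumors and at 2.97, 3.15 and 2.50 FPKM in the adapted/B6 tumors, which were all above the original/B6129SF1 tumors. The log2 fold changes were 0.72 and 0.76 (SE 0.28 each, adjusted p = 0.148 and 0.145 from limma), and 0.44 and 0.47 without original/B6129SF1 replicate 2 (adjusted p = 0.294 and 0.291). Itgb6, the beta chain of the epithelial alpha v beta 6, was at 1.29 FPKM in adapted/B6129SF1 replicate 3 and at most 0.350 FPKM elsewhere. Itgb8, the beta chain of alpha v beta 8, was at 0.449 to 1.25 FPKM with overlap between the groups.

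Widely expressed integrins were the most abundant. All 6 members were tested, 0 passed in any comparison, 2, 0 and 0 had an unadjusted p under 0.05 from limma (26.5%, 24.4% and 6.27% of all genes tested), and their median log2 fold changes were -0.10, -0.03 and 0.02. Itgb1, the beta 1 chain that pairs with most alpha chains, was the highest of all members, at 286, 260 and 292 FPKM in the original/B6129SF1 tumors, 232, 201 and 253 FPKM in the adapted/B6129SF1 tumors and 247, 241 and 263 FPKM in the adapted/B6 tumors. The adapted/B6129SF1 tumors were all below the original/B6129SF1 tumors, while adapted/B6 replicate 3 overlapped with them. On the log2 scale, the fold change was -0.29 in the adapted/B6129SF1 group (SE 0.11, adjusted p = 0.131 from limma) and -0.16 in the adapted/B6 tumors (adjusted p = 0.419). Itgb1 took 53.4 ± 4.37% of the beta chain FPKM in the original/B6129SF1 group, 44.7 ± 6.59% in the adapted/B6129SF1 group and 46.7 ± 1.13% in the adapted/B6 tumors (SD, n = 3 each).

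Itgav, the alpha v chain of receptors for vitronectin, fibronectin and latent TGF-beta, was at 53.0, 47.2 and 50.0 FPKM in the original/B6129SF1 tumors, 42.3, 37.9 and 31.0 FPKM in the adapted/B6129SF1 tumors and 40.2, 41.2 and 44.1 FPKM in the adapted/B6 tumors. Every tumor of adapted cells was below every tumor of original cells. The fitted log2 fold change was -0.43 in the adapted/B6129SF1 group (SE 0.12, adjusted p = 0.0582 from limma) and -0.25 in the adapted/B6 tumors (SE 0.12, adjusted p = 0.228), and neither passed. Without adapted/B6129SF1 replicate 1, the adapted/B6129SF1 value was -0.53 and passed (adjusted p = 0.0360). With any other single tumor left out it did not pass, and the value closest to no change was -0.31. Adjusted p-values from limma were then up to 0.165. The partner chains Itgb5 and Itgb3 were at 109 to 197 and 11.4 to 24.4 FPKM, and Itga5, the fibronectin receptor chain, was at 50.5 to 91.0 FPKM. Itga9, the alpha 9 chain of a tenascin and osteopontin receptor, was at 2.54 to 5.75 FPKM, and for these 4 members the groups overlapped.

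Mesenchymal and muscle integrins included the 1 member described here that passed. Itga10, the alpha 10 chain of a collagen receptor that is known mainly from cartilage, was at 25.5, 35.9 and 29.2 FPKM in the original/B6129SF1 tumors. It was at 43.6, 30.2 and 32.7 FPKM in the adapted/B6129SF1 tumors and at 13.8, 20.6 and 13.9 FPKM in the adapted/B6 tumors. All adapted/B6 tumors were below all tumors of both groups with B6129SF1 hosts, which overlapped with each other. Group means were 30.2 ± 5.27, 35.5 ± 7.13 and 16.1 ± 3.89 FPKM (SD, n = 3 each). As a log2 fold change, the difference was -0.88 in the adapted/B6 tumors relative to the original/B6129SF1 group (SE 0.20, adjusted p = 0.0363 from limma) and 0.23 in the adapted/B6129SF1 group (adjusted p = 0.497).

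Relative to the adapted/B6129SF1 group, Itga10 in the adapted/B6 tumors had a log2 fold change of -1.10 (SE 0.20, 95% interval -1.56 to -0.65, adjusted p = 0.293 from limma), which was larger in size but did not pass. The call against the original/B6129SF1 group was sensitive to single tumors. It was lost without original/B6129SF1 replicate 1, 2 or 3 (adjusted p = 0.0584, 0.0966 and 0.101) and without adapted/B6 replicate 1 or 3 (adjusted p = 0.106 and 0.139), while the log2 fold change stayed between -1.06 and -0.75 without any one tumor. It was also lost without both muscle-rich tumors (adjusted p = 0.104).

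Itga1, the alpha 1 chain of a collagen and laminin receptor on stromal cells, vessels and activated lymphocytes, was at 2.61, 1.48 and 3.20 FPKM in the original/B6129SF1 tumors, 4.93, 4.41 and 3.42 FPKM in the adapted/B6129SF1 tumors and 6.96, 3.92 and 5.04 FPKM in the adapted/B6 tumors. All tumors of adapted cells were above those of original cells. The log2 fold changes were 0.64 and 0.89 (SE 0.24 each, adjusted p = 0.136 and 0.0618 from limma), and neither passed. Without original/B6129SF1 replicate 2 the first was 0.42 (adjusted p = 0.276). Itga8 was at 0.219 to 0.737 FPKM with overlap between all groups.

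Itga7, the laminin receptor chain of muscle fibers, was at 13.4, 10.1 and 20.6 FPKM in the original/B6129SF1 tumors, 6.74, 7.13 and 27.4 FPKM in the adapted/B6129SF1 tumors and 14.9, 7.10 and 12.6 FPKM in the adapted/B6 tumors. The highest value was that of adapted/B6129SF1 replicate 3, which also had the highest muscle RNA. Over the 3 tumors with the least muscle RNA, at 4.16 to 21.6 FPKM of muscle genes in sum, Itga7 was at 7.10 to 10.1 FPKM, but its lowest level, 6.74 FPKM, was in adapted/B6129SF1 replicate 1, whose muscle genes summed to 730 FPKM, the third highest sum. Itga11, a collagen receptor chain of fibroblasts, was at 1.18 FPKM in adapted/B6129SF1 replicate 3 and at most 0.386 FPKM elsewhere. Itga2b, the alpha chain of the platelet fibrinogen receptor, was at 0.564 to 1.12 FPKM in all tumors with overlap between the groups. The platelet chemokine gene Ppbp fell in the adapted/B6129SF1 tumors, with a log2 fold change of -2.43 (limma adjusted p = 0.0259). Pf4 was also lower there, at 69.5 to 276 FPKM against 307 to 527 in the original/B6129SF1 tumors, but did not pass. The platelet genes Gp1ba, Gp5, Gp6 and Gp9 were at most at 0.375 FPKM and overlapped between these 2 groups. The call of Ppbp was lost without original/B6129SF1 replicate 1 or 3 or adapted/B6129SF1 replicate 2 or 3, with adjusted p-values of 0.0666 to 0.0943. Muscle and platelet content was not tested as a source of these differences.

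**Figure D5:**
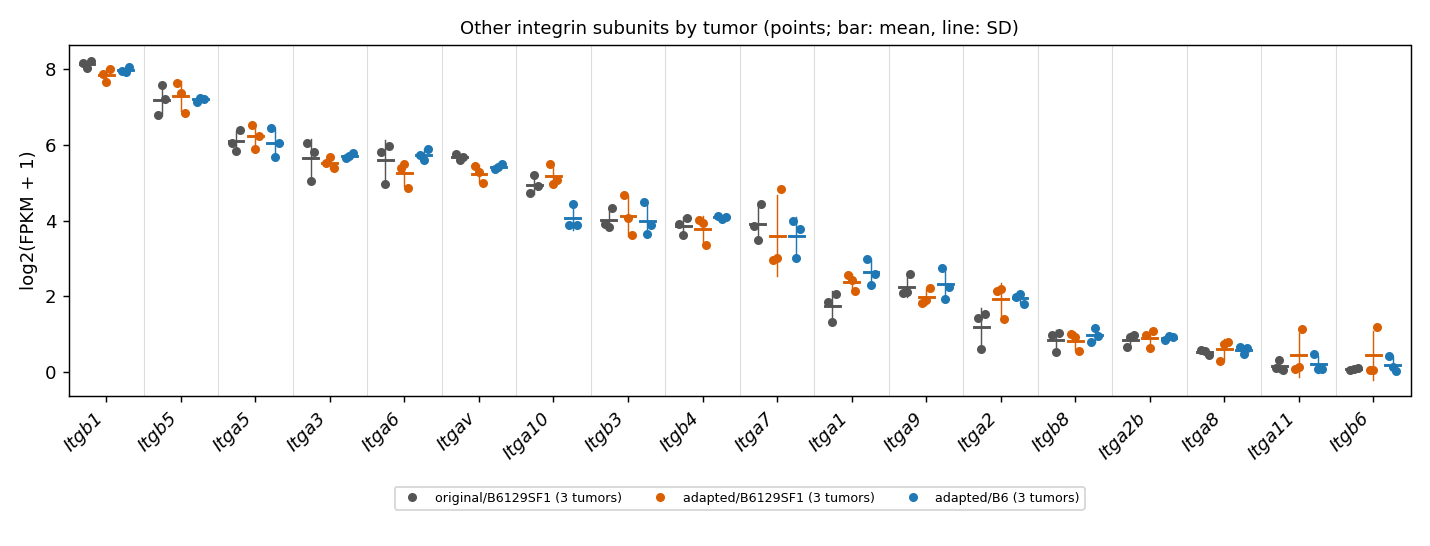
Level of the 18 integrin subunits other than leukocyte integrins in the 9 tumors as log2(FPKM + 1), in order of level, with points for tumors, horizontal bars for the means of the 3 tumors of a group and vertical lines for the SD. Itgb1 is highest in every tumor, the Itga10 points of the adapted/B6 tumors lie below those of both other groups, and Itga7, Itga11 and Itgb6 are highest in one adapted/B6129SF1 tumor.

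Itgbl1, the gene that shares the name but is not a subunit, was at 22.9, 68.6 and 36.4 FPKM in the original/B6129SF1 tumors, 18.3, 17.5 and 29.1 FPKM in the adapted/B6129SF1 tumors and 20.5, 22.2 and 19.0 FPKM in the adapted/B6 tumors. The adapted/B6 tumors were below the original/B6129SF1 tumors, and original/B6129SF1 replicate 2 stood far above all others. The log2 fold changes were -0.84 and -0.88 (SE 0.35 each, adjusted p = 0.165 and 0.168 from limma), and without original/B6129SF1 replicate 2 they were -0.44 and -0.47 (adjusted p = 0.315 and 0.318).

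The genes that work with integrins and laminins were followed in 4 lists, with 54 genes tested in all. Of these, 5 passed in the adapted/B6129SF1 group, 3 in the adapted/B6 tumors and 0 between the adapted groups, against 8.28%, 6.75% and 0.0292% of all genes tested. Between the adapted groups, 5 had an unadjusted p under 0.05 from limma, as did 6.27% of all genes tested. Of 24 tested genes that activate integrins or connect them to the cytoskeleton, 1 rose and 2 fell in the adapted/B6129SF1 group, and 1 rose and 1 fell in the adapted/B6 tumors, with median log2 fold changes of 0.00 and 0.09. Ptk2b, which encodes the kinase PYK2 of leukocyte and other cell adhesions, was at 11.3, 10.1 and 12.3 FPKM in the original/B6129SF1 tumors, 27.7, 22.7 and 24.2 FPKM in the adapted/B6129SF1 tumors and 23.2, 22.0 and 25.4 FPKM in the adapted/B6 tumors. All tumors of adapted cells were above those of original cells, with log2 fold changes of 1.08 (SE 0.11, adjusted p = 0.00242 from limma) and 1.01 (adjusted p = 0.00287).

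Ptk2b passed in both comparisons without any one tumor. The related kinase gene Ptk2 (FAK) was at 19.7 to 28.7 FPKM with log2 fold changes of 0.00 and 0.27 (limma adjusted p = 0.992 and 0.193). Bcar1, which encodes the adaptor p130Cas, fell by 0.50 in each adapted group on the log2 scale (adjusted p = 0.0403 and 0.0471), and Parva, which encodes the adaptor parvin alpha, fell by 0.49 in the adapted/B6129SF1 group (adjusted p = 0.0342). The call of Parva was lost without any one of the original/B6129SF1 tumors, adapted/B6129SF1 replicate 2 or 3 or adapted/B6 replicate 3 (adjusted p = 0.0591 to 0.0838). Bcar1 lost its call without any one of the 9 tumors but adapted/B6129SF1 replicate 1 in the first comparison (adjusted p = 0.0505 to 0.120) and but adapted/B6129SF1 replicates 1 and 3 in the second (adjusted p = 0.0615 to 0.139). Fermt3, the kindlin of blood cells that activates beta 2 integrins, was at 18.4 to 25.2, 33.5 to 36.6 and 18.3 to 35.5 FPKM in the 3 groups (log2 fold changes 0.72 and 0.41, adjusted p = 0.0922 and 0.314).

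Of 13 tested genes of the basement membrane and the hemidesmosome, 1 fell in the adapted/B6129SF1 group and 1 rose in the adapted/B6 tumors (8.28% and 6.75% of all genes tested passed). Their median log2 fold changes were 0.11 and 0.13. Ntn4, which encodes netrin 4, a protein that binds laminin gamma chains, was at 7.61, 10.4 and 10.5 FPKM in the original/B6129SF1 tumors, 3.83, 4.13 and 4.59 FPKM in the adapted/B6129SF1 tumors and 4.09, 7.43 and 4.79 FPKM in the adapted/B6 tumors. In the adapted/B6129SF1 tumors it fell by 1.01 on the log2 scale (SE 0.20, adjusted p = 0.0207 from limma), and its call was lost without original/B6129SF1 replicate 2 or 3 or adapted/B6129SF1 replicate 2 (adjusted p = 0.0548, 0.0792 and 0.0577). Nid1, which encodes nidogen 1, the linker between laminin and type IV collagen, was at 85.95, 57.05 and 80.44 FPKM in the original/B6129SF1 tumors, 158, 108 and 93.5 FPKM in the adapted/B6129SF1 tumors and 141, 141 and 155 FPKM in the adapted/B6 tumors. It rose by 0.98 in the adapted/B6 tumors (SE 0.21, adjusted p = 0.0296), and its call was lost without any one of the tumors of these groups (adjusted p = 0.0521 to 0.113). Col17a1, the hemidesmosomal collagen gene, was at most at 0.0563 FPKM, while the plakin genes Plec and Dst were at 64.7 to 97.4 and 22.2 to 41.9 FPKM.

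Of 10 tested genes for matrix ligands of the alpha v, alpha 5, alpha 8 and alpha 9 integrins, 1 rose in the adapted/B6129SF1 group and 0 passed in the adapted/B6 tumors (8.28% and 6.75% of all genes tested passed). In the adapted/B6 tumors, 3 had an unadjusted p under 0.05 from limma (24.4% of all genes tested). Their median log2 fold changes were -0.10 and -0.16. Npnt, which encodes nephronectin, a ligand of alpha 8 beta 1, was at 5.95, 4.44 and 3.37 FPKM in the original/B6129SF1 tumors, 13.6, 15.5 and 13.4 FPKM in the adapted/B6129SF1 tumors and 7.93, 13.6 and 6.21 FPKM in the adapted/B6 tumors. In the adapted/B6129SF1 tumors it rose by 1.46 on the log2 scale (SE 0.26, adjusted p = 0.0144 from limma), a call that was lost without original/B6129SF1 replicate 3 (adjusted p = 0.0608). Fn1 (fibronectin) was at 460 to 1181 FPKM and Spp1 (osteopontin) at 871 to 3884 FPKM, and neither passed.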

How the data were processed

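Total RNA of 9 whole orthotopic tumors was sequenced, and the groups and replicate numbers were taken from the labels of the samples. The organism label reads Homo sapiens, but the cells, hosts, genome build and gene symbols are of the mouse. The authors checked paired-end reads with FastQC, aligned them to mm10 with HISAT2 and made the deposited FPKM values of all tumors together with Cuffnorm. The gene annotation, the scaling option and strand handling are not given in the sources used here. The whole table was read, with 0 columns left without a sample, and at most 0.0487% of the genes tested had identical values in any pair of tumors.

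FPKM values are not counts, so they were compared as log2(FPKM + 1) with limma 3.58.1 in R 4.3.3 (lmFit and eBayes with trend), in one model of 3 groups. The test covered 10263 genes that reached 1 FPKM in 3 or more tumors, and Benjamini-Hochberg adjustment ran over all of them. The pseudocount understates changes of weakly expressed genes. Cuffdiff, which the study used on the reads, was not run. Members under the filter and levels relative to leukocyte genes were compared by exact two-sided permutation tests. On data simulated with the spread of these tumors, for adapted/B6129SF1 against original/B6129SF1 and 10263 genes, 186 of 200 known changes were called in the right direction and 10 unchanged genes were called. The known changes were larger in size than that of any member described here and were set only in genes above a minimum mean level. The simulation therefore does not show how often changes of the size seen in the members would be called.

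Absolute depth is unknown. Steps between the lowest FPKM values gave a depth relative to original/B6129SF1 replicate 1 of 0.973 to 1.36, which is approximate because only 102 to 192 of 538 to 764 weakly expressed genes lay on the main step. The number of tumors limits the precision. Same-numbered tumors are different animals, so the replicate number was not used as a block. The members, their classes and the lists of other genes were chosen from general knowledge of the biology, with earlier results of these data known. One member is not reported here, and it was left out of the counts, medians and sums over members. Any other member could be named, with values in every tumor for those that passed and for the defining chains of a complex, and list genes were named where they passed or defined a list. Fermt3, Ptk2, Icam1, Vcam1, Plec, Dst, Col17a1, Fn1 and Spp1 were named after their values were seen. The same holds for Flt3, Xcr1, Cd209a, Zbtb46, Ccr7, Pf4, Gp1ba, Gp5, Gp6 and Gp9. The alternatives tried were another scaling, filter, pseudocount, set of samples and variance model, a replicate block, and leaving out tumors. No mouse sequence or annotation was used, and genes are therefore named by symbol alone, and reads shared between related genes could not be assessed.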

Additional observations from a re-analysis of the deposited data

How the results depend on the processing

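With 3 tumors a group, differences close to the threshold were called or lost with small changes, and the absolute depth is unknown. The sign of a fold change was followed only for selected genes. These were members with an unadjusted p under 0.05 from limma or called in any alternative, and named list genes that passed. No value changed sign among them, and values close to 0 were not followed. The count of described members that passed in the adapted/B6129SF1 group (0) was 1 when only the groups compared were in the model (Itgb2), 1 without both muscle-rich tumors (Lama5) and 0 to 2 when single tumors were left out, and the count of DEGs (0) was 0 to 1 in the latter case. In the adapted/B6 group the count (1) was 0 with no filter on low values, 2 with only the groups compared (Itga10 and Lama5) and 0 to 3 when single tumors were left out, and without adapted/B6 replicate 2 it was 3 (Itga10, Itgam and Itgb2). Its DEGs (0) numbered 1 in each of 3 alternatives, namely only the groups compared, both muscle-rich tumors left out and an adjusted p under 0.05 alone, and 0 to 3 when single tumors were left out. Between the adapted groups the count was 0 in every alternative. Lama5 passed in the adapted/B6 group with only the groups compared (adjusted p = 0.0026 from limma), and Itgb2 in the adapted/B6129SF1 group (adjusted p = 0.0268).

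Of the 54 list genes, 5 passed in the adapted/B6129SF1 group, against 3 with the replicate block and 1 to 6 when single tumors were left out. In the adapted/B6 group 3 passed, against 1 to 5 when single tumors were left out. With Ptprc alone as the reference for leukocyte integrins, differences on the log2 scale became -0.15 and -0.021 for Itgb2 in the adapted/B6129SF1 tumors and the adapted/B6 tumors, -0.49 and 0.11 for Itgam, and -0.34 for Itga4 in the adapted/B6 group. The cause was not tested.

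The replicate numbers did not pair the tumors, since the correlations of same-numbered tumors ran from -0.388 to 0.614. With the replicate block, the counts of described members that passed were 0, 1 and 0, where Itga10 was lost in the adapted/B6 group (adjusted p = 0.0723) and Itgam was called (0.89, adjusted p = 0.0446).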

Other observations

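Single tumors had the highest or lowest level of several members, some of them weakly expressed. Adapted/B6129SF1 replicate 3, with 36411 FPKM of skeletal muscle genes in sum, had the highest level of Itga7 (27.4 FPKM), Itga11 (1.18 FPKM), Itgb6 (1.29 FPKM) and Lama1 (0.519 FPKM), and the lowest of Lamb1 (80.4 FPKM), Itgav (31.0 FPKM), Itga6 (28.2 FPKM) and Itgb4 (9.30 FPKM). Original/B6129SF1 replicate 2 had the highest level of Itgbl1 (68.6 FPKM) and Lamc3 (2.51 FPKM), and the lowest of Itga1 (1.48 FPKM), Itgal (1.43 FPKM), Itgam (36.5 FPKM) and Itgb2 (34.3 FPKM).

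Within the beta 2 family, Itgb2 was 0.523 to 0.865 of the summed FPKM of Itgal, Itgam, Itgax and Itgad across the 9 tumors. Itgam was 14.2 to 15.7 times as high as Itgal in the adapted/B6 tumors, against 14.7 to 25.4 times in the original/B6129SF1 tumors and 6.94 to 28.3 times in the adapted/B6129SF1 tumors. In the adapted/B6129SF1 group, replicate 1 had the highest ratio, and its T and NK cell genes summed to 15.0 FPKM, the least of that group.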
